A study of Mus musculus with 4 samples.

Results

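The *Pramel* and oogenesin genes of late 2C mouse embryos are described here in control embryos and in embryos treated with Mdivi-1, an inhibitor of the mitochondrial fission protein DRP1. The members are the genes of the deposited count table whose symbol begins with Pramel, Pramef or Oog followed by a digit. The rule found 44 genes among the 26022 of the table, of which 4 are named *Oog* and 40 *Pramel*. No measured value entered the rule. RNA was taken from ICR embryos of mothers aged 7 to 8 weeks, cultured from the zygote stage for 16 h with or without 200 μM Mdivi-1, and amplified by Smart-Seq2. Each condition had 2 libraries, and 8 to 10 pooled embryos are given for each group. All embryos were in vitro cultured offspring of superovulated females, and no vehicle is named for the control embryos. Library totals ran from 17712075 to 20077326 counts. Nothing in the sources used here says which libraries came from separate litters, so p-values measure the spread between these libraries, which may be technical.

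PRAME-family genes encode proteins built of leucine-rich repeats. Several of these proteins bind the Cullin-2 scaffold and present substrates to its ubiquitin ligase. In the mouse the family has expanded into tandem arrays of near-copies, and many of its members are transcribed mainly in germ cells and early embryos. The oogenesins (*Oog1* to *Oog4*) are members of this family that are expressed in oocytes and persist in the early embryo. *Pramel6* and *Pramel7* are known from the inner cell mass and from embryonic stem cells, where PRAMEL7 directs the DNA methylation cofactor UHRF1 to proteasomal breakdown.

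Most of the family had higher levels in both treated libraries than in both control libraries, and a small set had lower levels, although no member passed the adjusted threshold in the edgeR fit. All 44 members passed the low-count filter. In the edgeR quasi-likelihood fit across 14259 genes, 24 members were higher in treated embryos at an unadjusted p under 0.05, where 8.27% of all genes tested were. A further 3 members, *Pramel7*, *Pramel6* and *Pramel42*, were lower at that threshold, where 7.64% of all genes were. After Benjamini-Hochberg adjustment edgeR called 0 members and 0% of all genes, the smallest adjusted p over all genes being 0.109. DESeq2 called 15 members higher (3.23% of all genes) and *Pramel7* and *Pramel6* lower (2.75% of all genes) at an adjusted p under 0.05.

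The log2 fold change was positive for 34 members and negative for 10, against 51.3% positive over all genes, and its median was 0.995 over the members and 0.03 over all genes. Both treated libraries lay above both control libraries for 30 members (26.1% of all genes) and below them for 8 (23.9% of all genes). The 2 libraries of each condition overlapped with the other condition for 6 members (7124 of all 14259 genes tested). The values rested unevenly on the libraries. A fit without 1 library leaves a condition with 1 library, which is then assumed to vary like the 2 of the other condition, so that calls lost or held in such fits are a description and no measure of stability. The median log2 fold change of the members was 0.59 without control replicate 1 and 1.46 without control replicate 2. Over all genes it was 0.21 and 0.08 in those fits. Because these are bulk libraries of pooled embryos, a change in the make-up of the embryos and a change in RNA per embryo cannot be told apart.

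**Figure D1:**
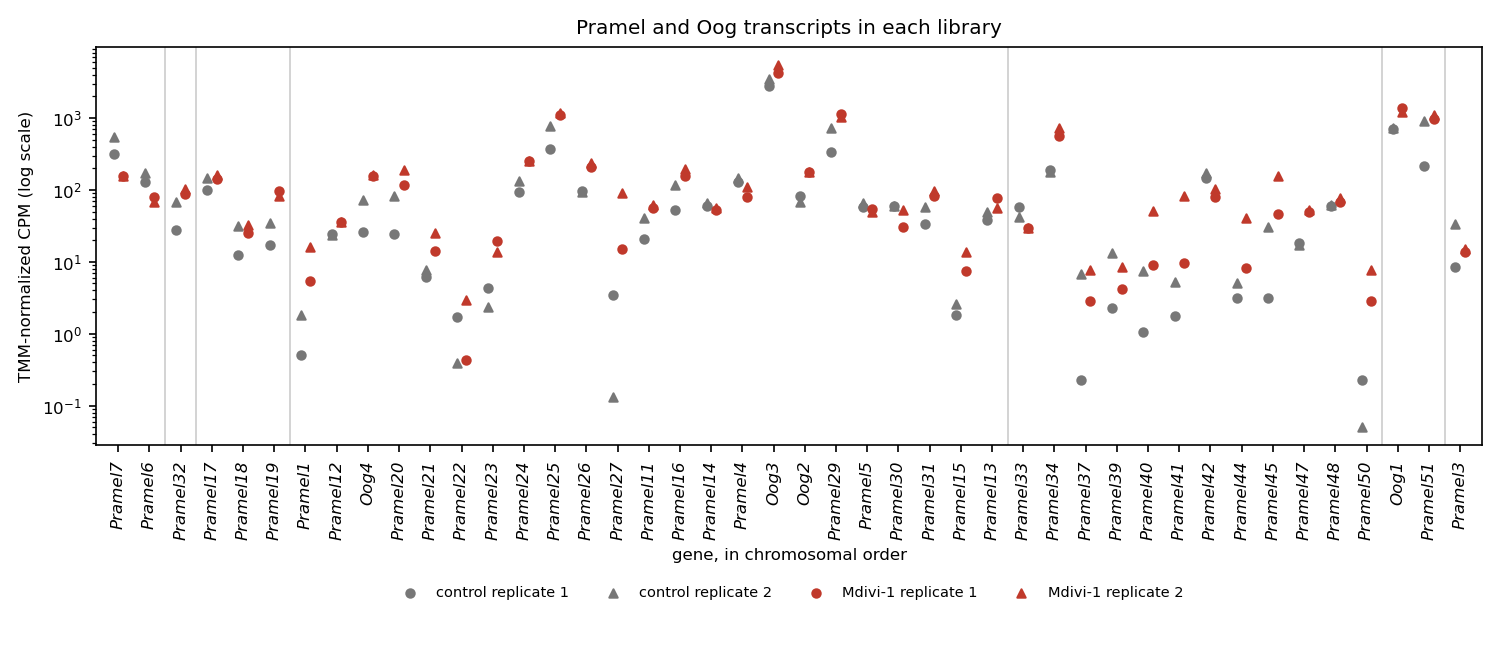
Level of each of the 44 genes in every library, in TMM-normalized CPM on a log scale, in chromosomal order with grey lines between position clusters. Grey marks are control and red marks Mdivi-1 libraries, circles replicate 1 and triangles replicate 2, and *Pramel50*, with a count of 0 in control replicate 2, is drawn at the lower edge. The red marks of 30 genes lie above both grey marks.

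Below, levels are in CPM, counts scaled to a common library size with TMM factors. Values with ± are log2 fold changes with standard errors. These standard errors were worked back from the fold change and the F statistic of the edgeR test, and are approximate. A gene is said to be called when its unadjusted p in the edgeR fit was under 0.05. No gene passed the adjusted threshold in that fit, and the edgeR adjusted p is given for each. The 44 genes summed to 6365 and 9280 CPM in control replicates 1 and 2 and to 11910 and 13820 CPM in Mdivi-1 replicates 1 and 2. Both treated sums were above both control sums, and control replicate 1 was the lowest. Without *Oog3*, the most abundant member, the sums were 3535 and 5791 CPM in control and 7676 and 8381 CPM in treated embryos, in the same order. As a share of all counts, before TMM scaling, the 44 genes held 0.70% and 0.77% in control replicates 1 and 2. In Mdivi-1 replicates 1 and 2 they held 1.25% and 1.43%. The TMM factors of control replicates 1 and 2 were 1.10 and 0.83, which widens the gap between their CPM. The 4 *Oog* genes summed to 3640 and 4358 CPM in control and 5938 and 6983 CPM in treated embryos, and the 40 *Pramel* genes to 2725 and 4922 CPM and 5972 and 6836 CPM.

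The oogenesins were higher in both treated libraries in 4 of 4 genes (26.1% of all genes), with a median log2 fold change of 1.05. *Oog3* was also the most abundant member per kilobase of exon, with a mean over the 4 libraries of 2144 CPM per kb. *Pramel25* and *Oog1* followed with 473.9 and 408 CPM per kb. *Oog3* lies at chr4:144157557-144162663 and *Oog1* at chr12:87602688-87608850 (GRCm38, GENCODE M21). The RefSeq promoter windows of both genes, 250 bases before to 50 after the annotated start, are shown because *Oog3* is the most abundant member and *Oog1* the gene from which the oogenesins have their name. Capitals mark TATAAA and GGGTGTG.
*Oog3* promoter (GRCm38.p6, chr4:144162602-144162901, minus strand): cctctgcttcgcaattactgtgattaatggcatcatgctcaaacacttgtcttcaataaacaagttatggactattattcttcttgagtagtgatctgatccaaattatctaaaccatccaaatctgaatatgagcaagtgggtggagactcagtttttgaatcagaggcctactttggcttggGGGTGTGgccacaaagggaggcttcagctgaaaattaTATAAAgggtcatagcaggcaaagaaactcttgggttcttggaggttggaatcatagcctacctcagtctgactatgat
*Oog1* promoter (GRCm38.p6, chr12:87602415-87602714, plus strand): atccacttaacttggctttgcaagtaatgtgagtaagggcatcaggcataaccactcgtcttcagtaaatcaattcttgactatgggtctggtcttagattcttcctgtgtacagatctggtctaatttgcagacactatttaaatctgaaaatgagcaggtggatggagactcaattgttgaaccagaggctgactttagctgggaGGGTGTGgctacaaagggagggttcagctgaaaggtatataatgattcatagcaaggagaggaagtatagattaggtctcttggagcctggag

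*Oog1* had 701 and 729 CPM in control and 1369 and 1203 CPM in treated embryos. The control libraries were close together and both treated libraries lay well above them, with a log2 fold change of 0.85 ± 0.31 and an edgeR adjusted p = 0.249 (DESeq2 adjusted p = 0.0490). *Oog2* had 82.7 and 67.1 CPM in control and 180 and 179 CPM in treated embryos (log2 change 1.26 ± 0.29, edgeR adjusted p = 0.159, DESeq2 adjusted p = 0.00705). The treated libraries were nearly equal and did not overlap with the controls. *Oog4* had 26.3 and 72.2 CPM in control and 155 and 162.5 CPM in treated embryos (1.69 ± 0.47, edgeR adjusted p = 0.190, DESeq2 adjusted p = 0.00949). Here the treated libraries were close together, while control replicate 1 was far below control replicate 2. *Oog3* had 2830 and 3490 CPM in control and 4234 and 5438 CPM in treated embryos, and its log2 fold change of 0.61 ± 0.36 was not called (edgeR adjusted p = 0.450, DESeq2 adjusted p = 0.242). The treated libraries were above the controls, with Mdivi-1 replicate 2 the highest. Without Mdivi-1 replicate 1 or 2, *Oog1* lost its call (log2 fold changes of 0.75 and 0.92), and without control replicate 1 or 2, *Oog4* had log2 fold changes of 1.13 and 2.57.

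Of the 40 *Pramel* genes 21 were called higher, and of the 4 *Oog* genes 3 (8.27% of all genes). The member with the smallest p was *Pramel34*, a gene of the chromosome 5 array at chr5:93634993-93671551 (GRCm38, GENCODE M21) for which the promoter table has no entry. It had 187 and 175 CPM in control and 565 and 731 CPM in treated embryos. Both treated libraries stood far above the closely matched controls, with a log2 fold change of 1.84 ± 0.31 (edgeR adjusted p = 0.136, DESeq2 adjusted p = 1.38e-06). The near-copy *Pramel47*, whose annotated coding sequence is 98.7% identical, had 18.3 and 17.3 CPM in control and 49.6 and 52.2 CPM in treated embryos (1.51 ± 0.35, edgeR adjusted p = 0.157, DESeq2 adjusted p = 0.0191). The replicates of each condition were again close and the conditions apart.

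**Figure D2:**
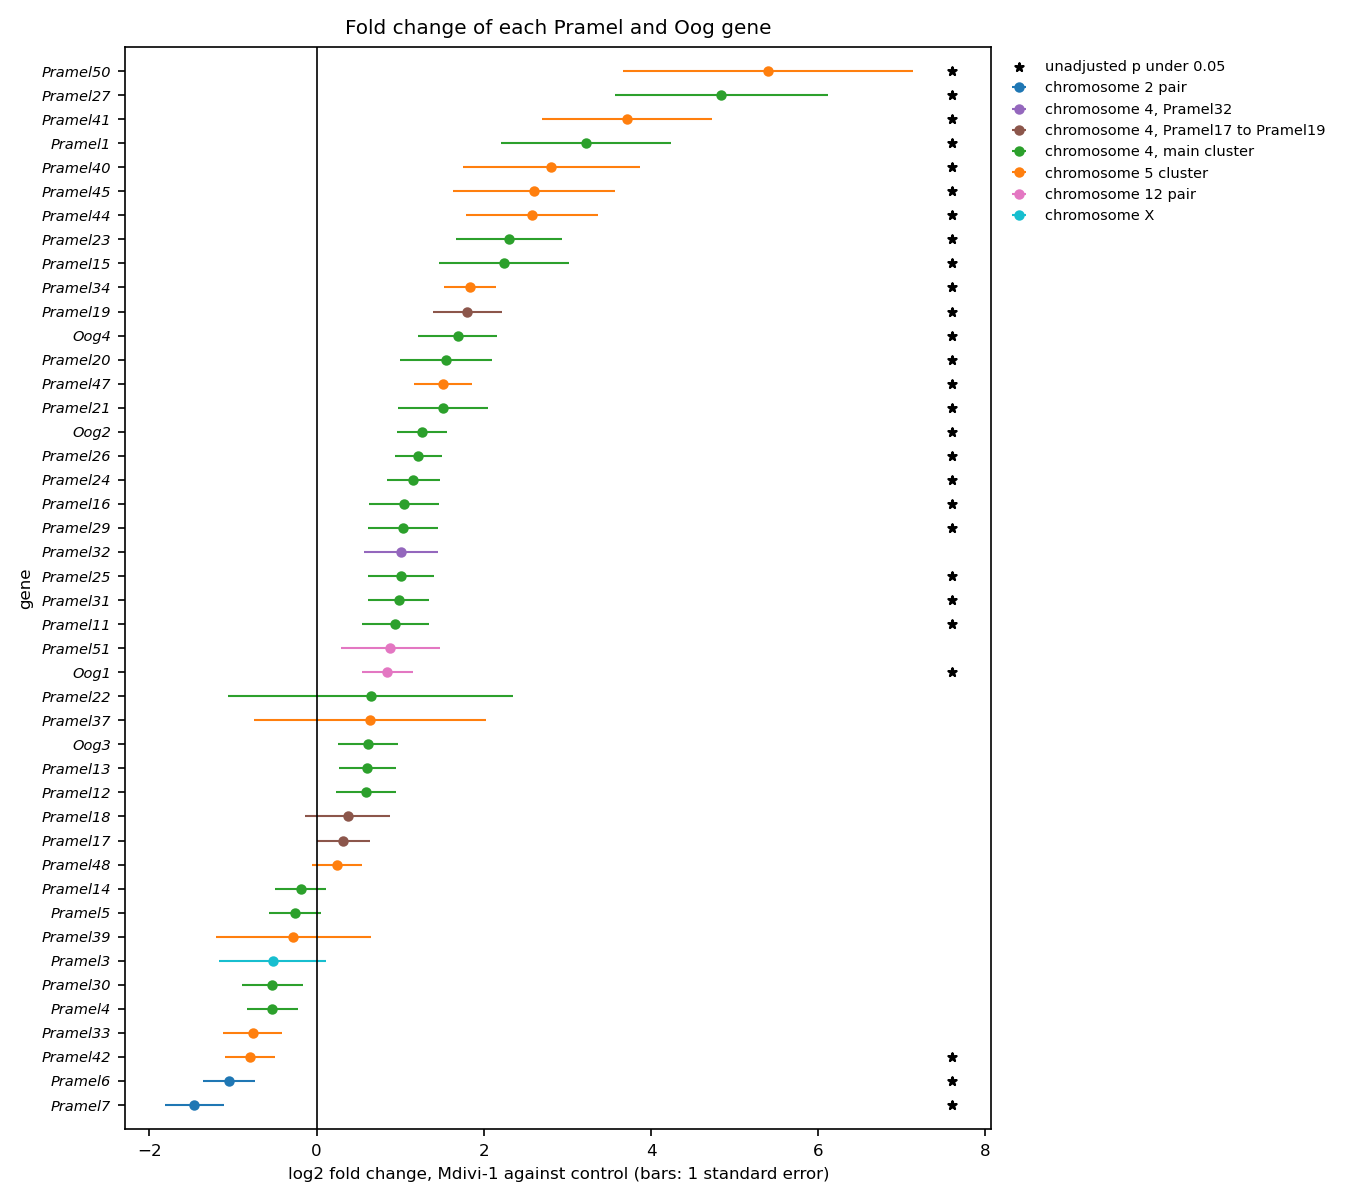
Log2 fold change of each member, Mdivi-1 against control, from the edgeR fit (points), sorted by size and coloured by position cluster. Bars are 1 standard error, worked back from the F statistic. Black stars mark an unadjusted p under 0.05, which 24 genes with positive and 3 genes with negative log2 fold change reached.

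The main chromosome 4 array, chr4:143394428-144408464 (GRCm38, GENCODE M21), holds 23 members. At an unadjusted edgeR p under 0.05, 15 were higher and 0 lower, against 8.27% and 7.64% of all genes. At an adjusted p under 0.05 DESeq2 called 7 higher and 0 lower (3.23% and 2.75% of all genes), and edgeR 0. The median log2 fold change of the array was 1.03, and its summed level was 4356 and 6069 CPM in control and 8085 and 9547 CPM in treated embryos. *Oog2* to *Oog4* belong to it. Among its *Pramel* genes, *Pramel26* had 96.8 and 93.9 CPM in control and 209 and 234 CPM in treated embryos, with well-matched replicates and no overlap (log2 fold change 1.22 ± 0.28, edgeR adjusted p = 0.159, DESeq2 adjusted p = 0.00653). *Pramel24* had 92.6 and 135 CPM in control and 253 and 255 CPM in treated embryos (1.16 ± 0.31, edgeR adjusted p = 0.182, DESeq2 adjusted p = 0.0190). Its treated libraries were nearly equal and above both controls. *Pramel25* had 376 and 764 CPM in control and 1106 and 1186 CPM in treated embryos (1.01 ± 0.40, edgeR adjusted p = 0.277). *Pramel29* had 334 and 723 CPM in control and 1141 and 1023 CPM in treated embryos (1.03 ± 0.41, edgeR adjusted p = 0.281). In this pair the treated libraries were close together and control replicate 1 was the lowest, and without that control the log2 fold changes were 0.58 and 0.57 and *Pramel29* was not called. Without control replicate 2 they were 1.58 and 1.67. Without Mdivi-1 replicate 1 or 2, neither gene was called, with log2 fold changes from 0.94 to 1.09.

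Other members of this array had the same low control replicate 1. *Pramel20* had 24.8 and 81.7 CPM in control and 118 and 192 CPM in treated embryos (1.55 ± 0.55, edgeR adjusted p = 0.245, DESeq2 adjusted p = 0.0421). *Pramel16* had 53.0 and 118 CPM in control and 157 and 197 CPM in treated embryos (1.05 ± 0.42, edgeR adjusted p = 0.278). The treated libraries of both genes lay above the controls. *Pramel31* had 33.7 and 58.1 CPM in control and 83.1 and 98.1 CPM in treated embryos (0.98 ± 0.36, edgeR adjusted p = 0.253). *Pramel11* had 20.9 and 40.6 CPM in control and 56.4 and 61.8 CPM in treated embryos (0.94 ± 0.40, edgeR adjusted p = 0.308). For these 2 genes too, the order was control replicate 1, control replicate 2 and then the treated libraries. Without control replicate 1, *Pramel16*, *Pramel31* and *Pramel11* were not called, with log2 fold changes of 0.57, 0.63 and 0.54, and without Mdivi-1 replicate 2 none of the 4 was, with 1.13 for *Pramel20* and 0.84 to 0.86 for the others. Without Mdivi-1 replicate 1, *Pramel31* (1.09) and *Pramel11* were not called either. *Pramel20* was at 0.92 without control replicate 1, and without control replicate 2, *Pramel20*, *Pramel16* and *Pramel11* were at 2.62, 1.71 and 1.47.

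A group of scarce genes in the same array had high fold changes. *Pramel23* had 4.28 and 2.36 CPM in control and 19.3 and 13.6 CPM in treated embryos (2.30 ± 0.63, edgeR adjusted p = 0.187, DESeq2 adjusted p = 0.0380). *Pramel21* had 6.14 and 7.81 CPM in control and 14.3 and 25.5 CPM in treated embryos (1.51 ± 0.54, edgeR adjusted p = 0.245). Neither gene overlapped between the conditions. *Pramel1*, a gene known from the testis, had 11 and 28 counts in control and 101 and 311 counts in treated embryos, which are 0.501, 1.84, 5.42 and 16.2 CPM (3.22 ± 1.02, edgeR adjusted p = 0.217, DESeq2 adjusted p = 0.0361). *Pramel15* had 40 counts in each control library and 137 and 263 in the treated ones, which are 1.82, 2.63, 7.35 and 13.7 CPM (2.24 ± 0.78, edgeR adjusted p = 0.237). Mdivi-1 replicate 2 was the highest library for *Pramel21*, *Pramel1* and *Pramel15*. Without it their log2 fold changes were 1.01, 2.19 and 1.70 and none was called, *Pramel21* was also not called without control replicate 1 (1.34), and *Pramel23* was not called without Mdivi-1 replicate 1 (2.02).

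*Pramel27*, whose replicates differed widely, was also called higher, and the remaining members of the array were not called. *Pramel13* and *Pramel12*, which are known from male germ cells, had 38.5 and 49.0 CPM in control against 77.5 and 55.6 CPM in treated embryos (0.61 ± 0.34, edgeR adjusted p = 0.431) and 24.1 and 23.3 CPM against 35.9 and 35.3 CPM (0.59 ± 0.36, edgeR adjusted p = 0.475). Their treated libraries were above the controls. *Pramel4*, *Pramel5*, *Pramel14* and *Pramel30* were the 4 members of the array with a negative log2 fold change, and in each of them both treated libraries were below both controls. *Pramel4* had 129 and 147 CPM in control and 80.1 and 111 CPM in treated embryos (-0.53 ± 0.31, edgeR adjusted p = 0.453). *Pramel30* had 59.2 and 59.8 CPM in control and 30.7 and 51.8 CPM in treated embryos (-0.53 ± 0.36, edgeR adjusted p = 0.539). The treated libraries of this gene were further apart than its controls. *Pramel5* had 57.0 and 66.3 CPM against 54.6 and 48.6 CPM (-0.26 ± 0.31, edgeR adjusted p = 0.767), and *Pramel14* 59.3 and 65.4 CPM against 52.6 and 56.7 CPM (-0.19 ± 0.30, edgeR adjusted p = 0.832).

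*Pramel7* and *Pramel6* lie next to each other on chromosome 2, chr2:87489087-87510872 (GRCm38, GENCODE M21), away from the arrays, and were the 2 members that DESeq2 called lower. The *Pramel7* promoter window of RefSeq is shown as that of the lower member with the smallest p. The window of *Pramel14* is shown beside it because it is the closest promoter among the members, at 76.7% identity, a choice made after the values were seen. Neither window holds TATAAA or GGGTGTG, and the RefSeq start of *Pramel7* lies 4675 bases from its GENCODE start.
*Pramel7* promoter (GRCm38.p6, chr2:87492369-87492668, minus strand): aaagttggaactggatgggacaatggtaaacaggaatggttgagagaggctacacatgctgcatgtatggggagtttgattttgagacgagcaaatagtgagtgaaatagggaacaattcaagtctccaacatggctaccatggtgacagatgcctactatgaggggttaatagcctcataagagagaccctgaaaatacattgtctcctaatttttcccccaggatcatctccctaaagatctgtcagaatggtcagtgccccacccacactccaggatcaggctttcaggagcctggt
*Pramel14* promoter (GRCm38.p6, chr4:143994320-143994619, minus strand): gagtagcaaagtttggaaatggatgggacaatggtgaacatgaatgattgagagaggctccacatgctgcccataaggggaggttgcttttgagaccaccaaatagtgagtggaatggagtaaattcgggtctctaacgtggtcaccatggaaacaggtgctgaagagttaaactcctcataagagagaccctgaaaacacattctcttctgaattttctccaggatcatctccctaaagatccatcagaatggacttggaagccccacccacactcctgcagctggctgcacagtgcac

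*Pramel7* had 311 and 546 CPM in control and 156 and 155 CPM in treated embryos. The treated libraries were nearly equal and below both controls, which themselves differed, and the log2 fold change was -1.46 ± 0.35 (edgeR adjusted p = 0.166, DESeq2 adjusted p = 0.00163). *Pramel6*, whose product is also tied to the pluripotent state of embryonic stem cells, had 130 and 174 CPM in control and 78.9 and 68.6 CPM in treated embryos (-1.05 ± 0.31, edgeR adjusted p = 0.201, DESeq2 adjusted p = 0.0420). Its libraries did not overlap between the conditions. Every 100-base window of both transcripts was found in no other annotated gene. *Pramel7* was called in each fit without 1 library, with log2 fold changes from -1.82 to -1.02, and *Pramel6* lost its call without Mdivi-1 replicate 2 (-0.97).

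The chromosome 5 array, chr5:93481829-95736173 (GRCm38, GENCODE M21), holds 12 members. At an unadjusted edgeR p under 0.05, 7 were higher and 1 lower, against 8.27% and 7.64% of all genes. At an adjusted p under 0.05 DESeq2 called 6 higher and 0 lower (3.23% and 2.75% of all genes), and edgeR 0. The summed level of the array was 484 and 538 CPM in control and 875 and 1349 CPM in treated embryos. Beside *Pramel34* and *Pramel47*, the near-copies *Pramel40*, *Pramel41*, *Pramel44* and *Pramel45* were called higher. *Pramel41* had 1.78 and 5.32 CPM in control and 9.55 and 82.9 CPM in treated embryos (3.72 ± 1.02, edgeR adjusted p = 0.185, DESeq2 adjusted p = 0.000566). *Pramel44* had 3.19 and 5.05 CPM in control and 8.27 and 40.8 CPM in treated embryos (2.58 ± 0.79, edgeR adjusted p = 0.213, DESeq2 adjusted p = 0.0261). Mdivi-1 replicate 2 was far above the other treated library in both. *Pramel40* had 1.05 and 7.48 CPM in control and 9.07 and 50.2 CPM in treated embryos (2.81 ± 1.05, edgeR adjusted p = 0.259, DESeq2 adjusted p = 0.0363). *Pramel45* had 3.19 and 30.4 CPM in control and 45.7 and 157 CPM in treated embryos (2.60 ± 0.97, edgeR adjusted p = 0.258). In these 2 genes the controls differed as well. Without Mdivi-1 replicate 2, none of the 4 was called, and the log2 fold changes of *Pramel40*, *Pramel41*, *Pramel44* and *Pramel45* were 1.07, 1.41, 0.98 and 1.43. Without control replicate 2 they were 4.79, 4.67, 2.92 and 4.96, and without control replicate 1 *Pramel45* had 1.73.

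*Pramel33*, *Pramel42* and *Pramel48* are near-copies in the same array, and none of them was called higher. *Pramel42* had 148 and 172 CPM in control and 80.1 and 104 CPM in treated embryos (-0.80 ± 0.30, edgeR adjusted p = 0.264), with no overlap between the conditions. *Pramel33* had 58.5 and 41.7 CPM in control and 29.3 and 29.7 CPM in treated embryos (-0.77 ± 0.35, edgeR adjusted p = 0.337). *Pramel48* had 60.1 and 62.7 CPM in control and 67.9 and 77.5 CPM in treated embryos (0.24 ± 0.30, edgeR adjusted p = 0.771). *Pramel42* was not called without control replicate 2 (-0.71), without Mdivi-1 replicate 1 (-0.62) or without Mdivi-1 replicate 2 (-1.02). The difference between these 3 genes and the other members of the array was not tested.

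Outside the arrays, *Pramel19* on chromosome 4 had 16.9 and 34.3 CPM in control and 96.7 and 81.4 CPM in treated embryos. Both treated libraries were far above the higher control, and the log2 fold change was 1.80 ± 0.41 (edgeR adjusted p = 0.155, DESeq2 adjusted p = 0.00381). Its neighbour *Pramel18*, with a coding sequence 96.6% identical, had 12.6 and 31.9 CPM in control and 25.2 and 32.3 CPM in treated embryos (0.37 ± 0.51, edgeR adjusted p = 0.803). The other neighbour, *Pramel17*, had 98.5 and 145 CPM in control and 140 and 164 CPM in treated embryos (0.32 ± 0.32, edgeR adjusted p = 0.705). The conditions overlapped for both neighbours. *Pramel32*, alone on another stretch of chromosome 4, had 28.1 and 67.8 CPM in control and 88.7 and 104 CPM in treated embryos (1.01 ± 0.44, edgeR adjusted p = 0.319). *Pramel51*, near *Oog1* on chromosome 12, had 218 and 912 CPM in control and 982 and 1100 CPM in treated embryos (0.88 ± 0.59, edgeR adjusted p = 0.523). The gap between its controls was larger than that between its higher control and the treated libraries, and its log2 fold change was 0.18 without control replicate 1 and 2.23 without control replicate 2. *Pramel3*, on the X chromosome and known from the testis, had 8.60 and 33.1 CPM in control and 13.9 and 15.1 CPM in treated embryos (-0.52 ± 0.64, edgeR adjusted p = 0.771), with the treated libraries between the controls.

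Replicates of a condition differed widely for some members. Control replicate 2 was more than 3 times control replicate 1 in 8 members, and the reverse held in 3. Mdivi-1 replicate 2 was more than 3 times Mdivi-1 replicate 1 in 6 members, and the reverse held in 0. In TMM-normalized CPM, replicate 2 was the higher library for 34 members in control and for 34 in treated embryos. For the controls this rests in part on their TMM factors of 1.10 and 0.83, and no share over all genes was computed. *Pramel27* had 75 and 2 counts in control and 282 and 1733 in treated embryos, which are 3.41, 0.131, 15.1 and 90.3 CPM (4.84 ± 1.27, edgeR adjusted p = 0.178, DESeq2 adjusted p = 0.112). The treated libraries were above the controls but differed from each other 5.97-fold, and the log2 fold change was 3.05 without Mdivi-1 replicate 2 and 8.57 without control replicate 1, the latter resting on 2 control counts. In the fits without 1 library, 1 condition has no spread of its own, and only effect sizes are given here. Log2 fold changes in these fits ran from 1.62 to 2.01 for *Pramel34*, from 1.37 to 2.37 for *Pramel19* and from 1.45 to 1.55 for *Pramel47*. They ran from 1.09 to 1.41 for *Oog2*, from 1.11 to 1.29 for *Pramel26* and from 0.90 to 1.43 for *Pramel24*.

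**Figure D3:**
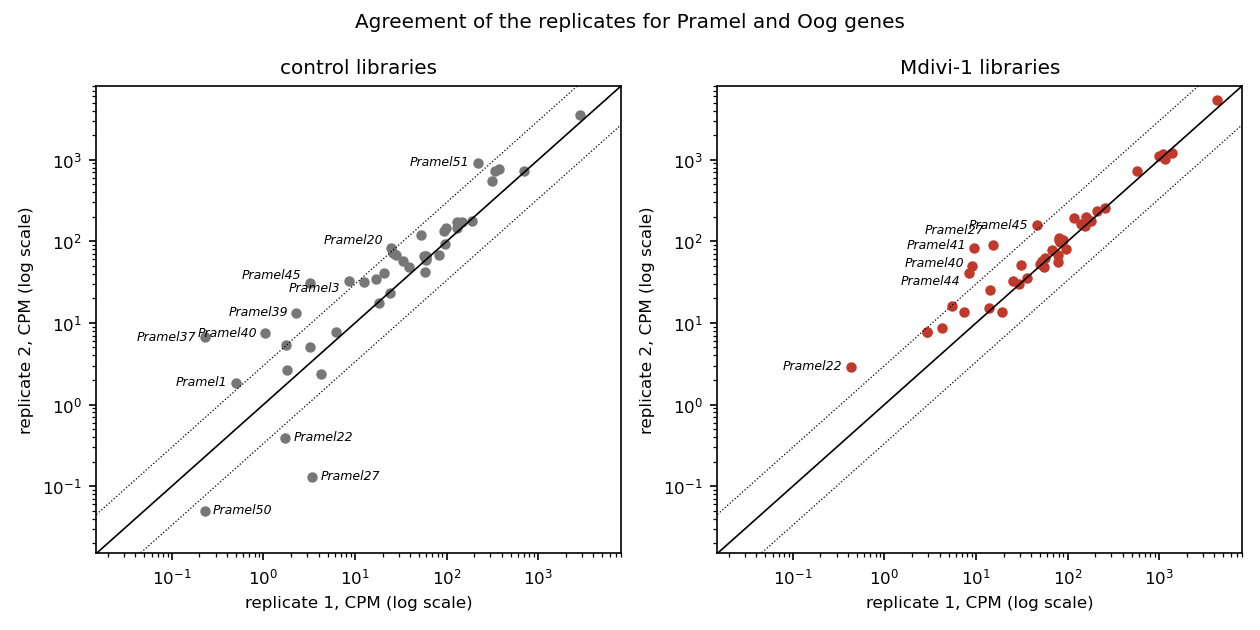
Replicate 2 against replicate 1 of each condition for the 44 genes, in CPM on log scales, with the line of equality and dotted lines at a 3-fold difference. Genes outside the dotted lines are named, 11 in control and 6 in treated embryos, and all 6 genes named for treated embryos are higher in replicate 2.

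Sequence copies bear on these values, since reads from near-identical genes can be lost, split or counted at more than 1 gene. The sources used here name the gene counts of STAR and do not say how reads that map to several places were treated. A 100-base window was called unique when no other gene of GENCODE M21 held it. Some members shared most windows with a gene that is no member and enters no sum below. Among them were *Oog1* (77.3% with *Gm2042*), *Pramel40* (73.2% with *Gm6346*) and *Pramel41* (71.0% with *Gm6351*). *Pramel44* (69.1% with *Gm7647*), *Pramel47* (59.5% with *Gm6205*) and *Pramel45* (52.4% with *Gm42662*) were others. Members not called higher did so too, namely *Pramel39* (82.7% with *Gm3147*), *Pramel4* (77.1% with *Gm13102*) and *Pramel33* (68.8% with *Gm7792*). So did *Pramel48* (66.5% with *Gm3286*) and *Pramel3* (52.4% with *Gm15023*). *Pramel42*, which was called lower, shared 63.3% with *Gm3183* and had 30.1% unique windows. At least 80% of windows were unique in 19 members, of which 11 were higher and 2 lower at an unadjusted edgeR p under 0.05 (median log2 fold change 1.01). In the other 25 members, 13 were higher and 1 lower (median 0.88). Of all genes, 8.27% were higher and 7.64% lower. Summing members whose annotated coding sequences are at least 90% identical gave 26 units. Such a sum would count reads assigned to more than 1 copy repeatedly. At that threshold 11 units were higher and 2 lower, with a median of 0.974. In that fit 1168 of 14241 genes were higher and 1090 lower. *Pramel34* and *Pramel47* together had 205 and 193 CPM in control and 615 and 783 CPM in treated embryos (1.81 ± 0.31, edgeR adjusted p = 0.135). *Pramel40*, *Pramel41*, *Pramel44* and *Pramel45* together had 9.19 and 48.3 CPM in control and 72.6 and 331 CPM in treated embryos (2.82 ± 0.89, edgeR adjusted p = 0.216). The spread between replicates thus remained in their sum. *Oog1*, *Pramel25*, *Pramel29* and *Pramel51* together had 1629 and 3129 CPM in control and 4597 and 4511 CPM in treated embryos (0.94 ± 0.41, edgeR adjusted p = 0.320), and *Pramel33*, *Pramel42* and *Pramel48* together 267 and 277 CPM in control and 177 and 212 CPM in treated embryos (-0.48 ± 0.29, edgeR adjusted p = 0.463).

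*Pramel37* and *Pramel50* are the extreme case, with coding sequences 100% identical and 0% unique windows. Both had 5 counts in control replicate 1, 54 in Mdivi-1 replicate 1 and 150 in Mdivi-1 replicate 2. In control replicate 2, *Pramel37* had 102 counts and *Pramel50* 0. Control replicate 2 alone separates the log2 fold changes of 5.40 ± 1.73 for *Pramel50* (edgeR adjusted p = 0.217) and 0.64 ± 1.39 for *Pramel37* (edgeR adjusted p = 0.890). Whether the same reads were counted at both genes was not tested. Their values are uncertain, singly and as a sum, and no summed level is given. *Pramel50* was not called without Mdivi-1 replicate 2 (4.52), and without control replicate 1 the control is at 0 counts, so that no fold is given. *Pramel37*, *Pramel39* and *Pramel22*, named after their values were seen, are the 3 members that averaged under 10 CPM and were not called. Their log2 fold changes were 0.64, -0.28 and 0.65, and their conditions overlapped.

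**Figure D4:**
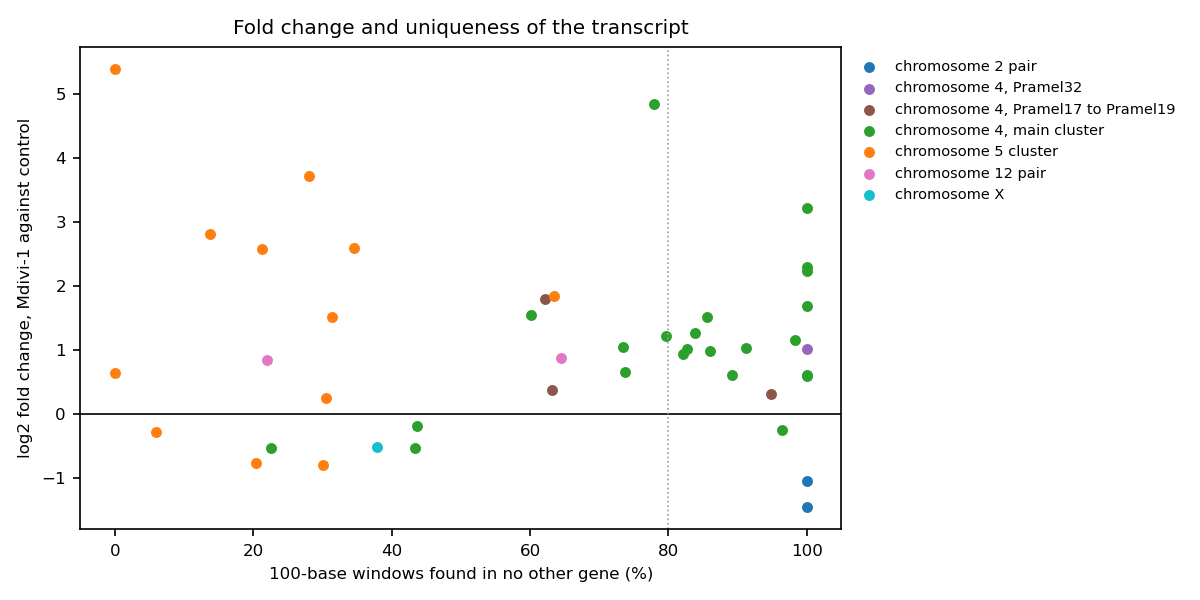
Log2 fold change of each member against the share of its 100-base windows found in no other annotated gene, coloured by position cluster, with a dotted line at 80%. Genes to the right of the line have values on both sides of 0, and the *Pramel7* and *Pramel6* pair lies at 100% and below 0.

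Promoters of the family fell into groups of related sequence. RefSeq gave a promoter window for 36 of the 44 members, and *Pramel12*, *Pramel18*, *Pramel34*, *Pramel41*, *Pramel42*, *Pramel44*, *Pramel47* and *Pramel51* have no entry. The median identity over all pairs of the 36 windows was 53.2%. Linking windows at 70% identity or more, a limit set after the values were seen, gave 6 groups that held 22 members. The largest group had 10 members, *Oog1* to *Oog4*, *Pramel23*, *Pramel25*, *Pramel26*, *Pramel27*, *Pramel29* and *Pramel32*, which lie in the main chromosome 4 array, elsewhere on chromosome 4 and on chromosome 12. All 10 had a positive log2 fold change (51.3% of all genes), from 0.61 to 4.84 with a median of 1.12. At an unadjusted edgeR p under 0.05, 8 were higher (8.27% of all genes). *Pramel11* with *Pramel24* and *Pramel20* with *Pramel31* formed pairs of 85.3% and 75.6% identity in which all 4 genes were higher at that threshold.

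The groups with negative values were *Pramel7* with *Pramel14* and *Pramel30*, from -1.46 to -0.19, and *Pramel4* with *Pramel5* (83.5% identity), at -0.53 and -0.26. Of these 5 genes *Pramel7* was called and the other 4 were not. *Pramel37*, *Pramel39* and *Pramel50*, with promoters 98.0% to 100% identical, had log2 fold changes of 0.64, -0.28 and 5.40. Related promoters mark related gene copies, so the genes of a group are not independent of each other, and no test was made of the groups. The annotated starts are uncertain for some members, since in 5 of 36 the RefSeq start lies over 1000 bases from the GENCODE start.

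**Figure D5:**
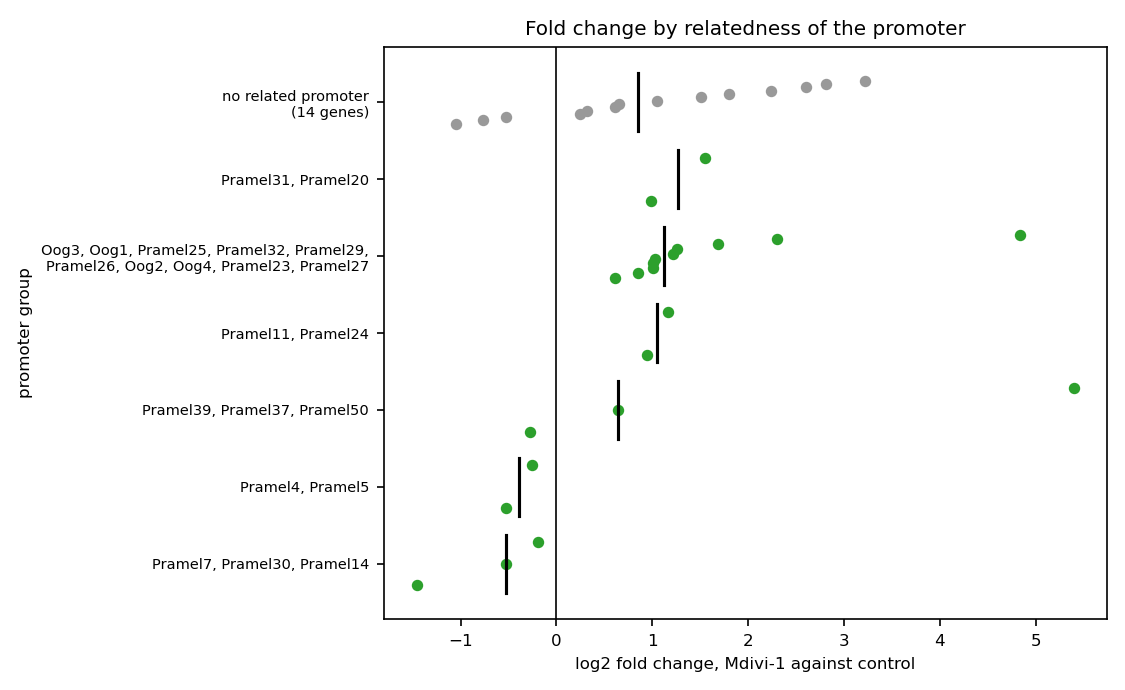
Log2 fold change of the 36 members with a promoter window, by group of related promoters (identity of 70% or more by linkage), with a black bar at each median. The group of 10 that holds *Oog1* to *Oog4* lies wholly above 0, and the groups of *Pramel7* and of *Pramel4* lie wholly below 0.

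On either strand, TATAAA was found in 11 of the 36 windows (30.6%), against 13.6% of all 32851 RefSeq promoter windows. TAATCC was found in 5 (13.9%, against 7.1%) and AGGTCA in 2 (5.6%, against 16.3%). The letters GGGTGTG were picked after the sequences were seen, so their share among the members is no test of enrichment. These letters were found in 14 member windows (38.9%) and in 7.95% of all windows. They were found in all 10 windows of the largest group, on the gene's own strand and starting 43 to 76 bases before the start. The log2 fold change was above 0 in 13 of the 14 genes with these letters (the other being *Pramel39*) and in 14 of the 22 genes without them. Over all genes tested it was above 0 in 51.3%. These matches are a description of the windows, and many of the genes that share them are related copies.

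Genes of the Cullin-2 ubiquitin ligase, with which PRAME proteins work, were taken as a list of 23 that also holds *Uhrf1* and *Dnmt1*, which are not part of the ligase, and 22 of the 23 were tested. At an unadjusted edgeR p under 0.05, 2 were higher and 1 lower (8.27% and 7.64% of all genes), the median log2 fold change was -0.40 (-0.50 without *Uhrf1* and *Dnmt1*, with the same 2 and 1 calls), and edgeR and DESeq2 each called 0 at an adjusted p under 0.05. *Cul2*, the scaffold, had 47.7 and 68.6 CPM in control and 20.02 and 29.8 CPM in treated embryos (-1.22 ± 0.38, edgeR adjusted p = 0.217, DESeq2 adjusted p = 0.0809). Both treated libraries were below both controls. The adaptors *Elob* and *Eloc* were not called, with log2 fold changes of -0.78 ± 0.36 (edgeR adjusted p = 0.338) and -1.08 ± 0.49 (edgeR adjusted p = 0.333). *Eloc* had 2649 and 6958 CPM in control and 2307 and 2247 CPM in treated embryos, so that control replicate 2 stood apart. The RING subunit *Rbx1* had 767 and 1683 CPM in control and 938 and 726 CPM in treated embryos (-0.56 ± 0.43, edgeR adjusted p = 0.592), with overlap.

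The 2 higher genes of the list were *Dcun1d1*, a cullin neddylation factor, and *Klhdc3*, a substrate receptor. *Dcun1d1* had 262 and 243 CPM in control and 372 and 497 CPM in treated embryos (0.78 ± 0.30, edgeR adjusted p = 0.272). *Klhdc3* had 10.7 and 3.74 CPM in control and 25.5 and 16.1 CPM in treated embryos (1.53 ± 0.63, edgeR adjusted p = 0.293). Neither overlapped between the conditions. *Uhrf1*, the known target of PRAMEL7, had 50.9 and 45.9 CPM in control and 66.8 and 89.1 CPM in treated embryos (0.69 ± 0.32, edgeR adjusted p = 0.341). Both treated libraries were above the controls. *Dnmt1*, the maintenance DNA methyltransferase that UHRF1 recruits, had 18.8 and 19.6 CPM in control and 25.1 and 17.98 CPM in treated embryos (0.17 ± 0.42, edgeR adjusted p = 0.908). The number of calls in this list changed when 1 library was left out.

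PRAME-family genes under other symbols are no members and are given for comparison. *AA792892*, which lies within the span of the chromosome 5 array, had 105 and 122 CPM in control and 265 and 318 CPM in treated embryos (1.36 ± 0.30, edgeR adjusted p = 0.153, DESeq2 adjusted p = 0.00156). *E330014E10Rik*, just beyond that array and 99.9% identical to *Pramel48* in coding sequence, had 129 and 112.5 CPM in control and 73.5 and 88.9 CPM in treated embryos (-0.57 ± 0.30, edgeR adjusted p = 0.392). The conditions did not overlap in either gene. *B020031M17Rik* had 166 and 525 CPM in control and 414 and 497 CPM in treated embryos (0.40 ± 0.51, edgeR adjusted p = 0.783), with overlap. *Lrrc14*, an older and more distant relative, had 2.09 and 3.54 CPM in control and 4.56 and 7.04 CPM in treated embryos (1.04 ± 0.91, edgeR adjusted p = 0.650), and *Pramex1* had 4 and 6 counts in control and 46 and 37 in treated embryos (2.92 ± 1.69, edgeR adjusted p = 0.446).

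Marker lists were read beside these results. The 8 markers of the 2-cell embryo were all detected. At an unadjusted edgeR p under 0.05, 4 were higher (*Zscan4c*, *Zscan4d*, *Zscan4f* and *Zfp352*) and *Obox6* was lower (8.27% and 7.64% of all genes). The median log2 fold change of the 8 was 1.22. Both treated libraries were above both controls in 6 of the 8 markers (26.1% of all genes). Their sums, 1702 and 2494 CPM in control and 2067 and 2845 CPM in treated embryos, overlapped, and without *Obox6* they were 697 and 1063 CPM in control and 1637 and 2196 CPM in treated embryos. Of 8 oocyte markers, 3 were higher (*Bmp15*, *Zp2* and *Gdf9*) and 1 lower (*Zp3*) at an unadjusted edgeR p under 0.05 (8.27% and 7.64% of all genes). The median was 0.38, and 4 of the 8 markers overlapped between the conditions (7124 of all 14259 genes tested). Their sums were 595 and 792 CPM in control and 1177 and 1406 CPM in treated embryos, but without *Bmp15* they were 411 and 519 CPM in control and 515 and 431 CPM in treated embryos, which overlapped. The part of these marker differences in the family's values was not tested. Markers of cumulus and granulosa cells, 3 of 10 of which passed the low-count filter, none of them called, summed to 7.78 and 16.5 CPM in control and 21.3 and 18.2 CPM in treated embryos, with *Amh*, *Inha*, *Has2* and *Ptx3* at 0 in all libraries. Blastocyst lineage markers summed to 14.1 and 10.6 CPM in control and 31.99 and 26.4 CPM in treated embryos, with *Cdx2* and *Sox17* at 0. All 3 that were tested had positive log2 fold changes, and *Gata3* was called higher (1.29 ± 0.44, edgeR adjusted p = 0.232). The sperm markers summed to 1.25 to 6.07 CPM, with *Odf1*, at 0 in both treated libraries, called lower. Of the oviduct markers, *Foxj1* was at 0 and *Epcam*, which early embryos also express, made up most of the sum of 247 to 406 CPM.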

How the data were processed

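The authors used cutadapt 1.16 for trimming and STAR for mapping, and deposited raw counts of reads in GENCODE exons, which are the values used here, with no statement of how reads mapping to several places were treated. The submitters' processing notes name the build mm10. The deposited table also holds the authors' size-factor normalized signal and its mean, and their DESeq2 comparison (log2 fold changes, Wald score and p-values), none of which was used. Members and lists were chosen with earlier results of these data known. Counts of genes passing filterByExpr (minimum count 10) were scaled by TMM and compared by the two-sided quasi-likelihood test of edgeR 4.0.16. The Benjamini-Hochberg method adjusted p-values over the 14259 genes that passed this filter. DESeq2 1.42.0 and limma-voom 3.58.1 were alternatives, and the scripts were tested on simulated data. Values in every library are given for members with a mean of at least 10 CPM or an unadjusted p under 0.05. Smart-Seq2 keeps no strand, so reads of overlapping and antisense genes cannot be told apart by strand. Coordinates and exon lengths are from GENCODE M21 on GRCm38, and the positions in the deposited table, which match that annotation for 614 of 25995 genes, were not used. Promoters are from RefSeq on GRCm38.p6. Window uniqueness was judged among annotated genes and misses copies that are not annotated. With no molecular identifiers, precision is that of 2 libraries per condition.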

Additional observations from a re-analysis of the deposited data

How the results depend on the processing

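The count of members higher at an unadjusted p (24) ranged from 23 to 26 under other scalings, filters and tests. It was 11 of 26 units with near-identical copies summed (added after the data were seen). It was also 11 of the 19 members with at least 80% unique windows, and both of these test fewer items. Over all genes, 1159 to 1394 of 14259 were higher at an unadjusted p under other scalings and tests. With no low-count filter 1498 of 18702 genes were, and with a filter of 1 CPM in 2 libraries 1107 of 13246. Leaving out 1 library gave 9 to 29 higher and 1 to 4 lower members. At an adjusted p, where edgeR called 0 in each direction, 15 members were higher and 1 lower with no low-count filter, 15 and 2 by DESeq2, 13 and 1 by the edgeR likelihood ratio test, and 3 and 1 by limma-voom. Leaving out 1 library gave 0 to 14 and 0 to 2. The median log2 fold change of the members ranged from 0.59 to 1.46 without 1 library, and that of all genes from -0.07 to 0.21. Library totals moved the median of all genes from 0.03 to 0.14 and that of the members to 1.17. Of the Cullin-2 list (2 higher, 1 lower), library totals gave 1 and 2 (1287 and 769 of 14259 genes). With no filter 6 were lower, and with a filter of 1 CPM in 2 libraries 2. DESeq2 gave 4 lower, the likelihood ratio test 5 and limma-voom 5. Over all genes, 1349 of 18702 were lower with no filter and 1077 of 13246 with the 1 CPM filter. Of 14259 genes, 1280 were lower by DESeq2, 1251 by the likelihood ratio test and 1236 by limma-voom. The numbers of the list also changed when 1 library was left out. Other than leaving out a library, limma-voom ended the call of *Pramel50*, DESeq2 that of *Pramel45*, library totals that of *Pramel42*, and DESeq2 size factors or the 1 CPM filter that of *Pramel11*. *Pramel32*, *Oog3* and *Pramel51* gained a call under some of them. Of 41 named members 39 kept their direction under every alternative. Without 1 library, *Pramel3* ranged from -1.20 to 0.72 (without control replicate 2) and *Pramel18* from -0.16 (without control replicate 1) to 1.17. The cause was not tested.

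Libraries of the 2 conditions share replicate numbers, and nothing in the labels pairs them. The correlation of the deviations of same-numbered libraries was 0.0081 over all genes and 0.020 over the 44 members. In TMM-normalized CPM, though, replicate 2 was the higher library for 34 members in each condition. The fit with the replicate number as a block gave 25 higher and 3 lower members (median 1.14) and 0 at an adjusted p. Over all 14259 genes that fit gave 1122 higher and 919 lower (median 0.05). Of the Cullin-2 list 1 gene was higher and 1 lower, and *Oog1* lost its call. The planned grouping of copies by protein identity was not run, and coding sequences were used in its place. With 2 libraries per condition, the spread between libraries and not depth limits the abundant members.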
